A study of Drosophila melanogaster with 24 samples.

Results

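The UDP-glycosyltransferase genes of Drosophila, named Ugt followed by a number, were followed in animals that lack, lack in part, or overexpress Manf. Members were taken by name: every probe whose gene symbol in the platform annotation, updated by gene identifier, begins with Ugt and a digit. This gave 69 of 45220 probes for 35 of the 12799 genes with a named probe, and all 35 Ugt genes of the annotation table were found. Of these genes 26 had 2 probes, 4 had 3 and 5 had 1, and no probe was left out for a low value.

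UDP-glycosyltransferases sit in the membrane of the endoplasmic reticulum with the active site in its lumen, and transfer a sugar from a UDP-sugar to small lipophilic molecules, which makes these soluble and ready for export. In insects the sugar is mainly glucose, and the substrates are plant toxins, insecticides, odorants, pigments and cuticle precursors. They act after cytochrome P450 enzymes and beside glutathione S-transferases, while ABC transporters carry the products out of the cell. Manf is a secreted protein of the endoplasmic reticulum that is induced when unfolded proteins build up there.

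The samples were whole animals on Agilent 4x44K arrays in 6 groups of 4 by the labels, whereas the methods speak of 3 biologically independent samples per genotype. Embryos were Manf mz mutants of the MANFdelta96 allele without maternal or zygotic product (21 to 24 h after egg laying, from females with hs70Flp FRT82B germ line clones, unable to hatch), rescued embryos with a mutant mother and a wild type paternal copy, and wild type. Larvae were, by label, zygotic MANFdelta96 mutants that still had a maternal load (29 to 50 h), larvae with UAS-DmManf133 under 69B-GAL4 (29 to 44 h for the larvae used), and wild type (29 to 45 h). The 69B driver is active in epidermis, imaginal discs and parts of the nervous system and not in the fat body, and mutant larvae were sorted by the absence of a GFP balancer. The wild type was w1118 crossed to w-, and by the methods all genotypes were in a w- background. No age in hours was available for the rescued and wild type embryos. In whole animals fewer cells of a type and less RNA per cell cannot be told apart. Which of the 4 labelled samples those 3 were is not stated, so that samples of a group may share a source and part of the spread behind the p values may be technical.

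Several samples bear on what follows. Overexpressing larvae 69 and 70 correlated with the other 22 samples at 0.370 to 0.442, against 0.886 to 0.994 among those 22, and were left out, so that overexpressing larvae are larvae 2 and 3 alone. At the brighter Manf probe mz mutant embryos 4, 87 and 88 read 10.12, 9.48 and 9.14 (log2 intensity), rescued embryos 10.52 to 10.91 and wild type embryos 11.10 to 11.48. At 11.29 the library labelled mz mutant embryo 1 stood among the wild type embryos. Counts of called Ugt probes in the main fit on mz mutants are given with and without it. Medians, sign counts, overlaps and counts in other gene lists are given for mz mutants with it alone. Larvae labelled mutant 2, 4, 65 and 66 read 10.67, 10.46, 12.48 and 13.50 at this probe, against 11.65, 11.59, 13.18 and 13.64 in wild type larvae 1, 2, 63 and 65, and overexpressing larvae 2 and 3 read 14.23 and 14.40. The libraries labelled mutant larva 65 and 66 thus lay within the wild type range, larva 66 also within that of its own number series, and Manf was not called lower in mutant larvae (log2 fold change -0.74, adjusted p = 0.709). Where the allele lies relative to the probe was not examined. Counts of called Ugt probes in the main fit on mutant larvae are given with both libraries, without larva 66, and without 65 and 66, which leaves larvae 2 and 4 of the low number series. Overlaps between groups are given with both libraries alone. Mutant larvae 2 and 4 also carried Alexa488 and were collected at 29 to 50 h and 31 to 50 h. Mutant larvae 65 and 66 carried Cy5 and were collected at 30 to 44 h. Sample numbers fall into a low series (1 to 4) and a high series (63 to 88), each with 2 samples of every group. All wild type larvae carried Cy3 and no mutant or overexpressing larva did, so that dye and genotype cannot be told apart there. A dye term for Cy3 in those comparisons rests on wild type and rescued embryos, where Cy3 and other dyes both occur. Of the wild type embryos 3 carried Cy3, which no mz mutant embryo did.

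All levels are the authors' normalised log2 intensities, where 1 unit is a doubling and the median of every sample is 9.15. A gene is described by its probe of highest mean over the 22 samples unless another probe is named, and called means an adjusted p under 0.01 over all 45220 probes. Since signal depends on the probe as well as on the RNA, values are compared only between samples at the same probe. The brightest probes over all samples, which gives no order of RNA amounts, were those of Ugt35A1 (mean 13.77), Ugt302C1 (13.52), Ugt37D1 (13.25), Ugt36D1 (12.90) and Ugt37C1 (12.21). The probe of Ugt49B2 was dim, with a mean of 7.27 near the border of the dimmest 25% of values (7.03 to 7.06 by sample). In the 30 genes with 2 or more probes the lowest correlation between probes had a median of 0.96 and was over 0.9 in 22, while in Ugt36F1 it was -0.03 and its probes differed in sign in all 8 contrasts computed.

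Between the stages more members were lower than higher in larvae: 12 of the 35 genes fell, 1 rose and 22 were not called. In wild type larvae against wild type embryos 26 of 69 Ugt probes were called (37.7%), where 16.1% of all probes were, and 23 of the 26 were lower (33.3% of Ugt probes against 7.50% of all) and 3 higher (4.35% against 8.57%). The median log2 change was -0.60 over the 35 genes, 9 of which were positive, and 0.00 over all genes. Groups did not overlap for 18 of the 35 genes (51.4%, against 37.0% of all genes), and 16 of these were lower (45.7% against 17.6%).

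Some members were dim in larvae. Ugt35D1 read 6.80, 6.63, 6.57 and 6.75 in wild type larvae, against 9.66, 9.78, 10.98 and 10.08 in wild type embryos. Every mutant larva and overexpressing larvae 2 and 3 also lay between 6.44 and 6.89, within the dimmest 25% of values, where a fall can be understated since the scale has no true zero. The measured log2 fold change was -3.44 (standard error 0.36, adjusted p = 7.117e-07), and the other probe gave -3.33. Ugt37E1 and Ugt37A1 had the same form. Ugt37E1 read 6.97, 6.95, 6.82 and 7.09 in wild type larvae, against 9.27, 9.80, 8.87 and 8.87 in wild type embryos, which gave -2.25 on the log2 scale (standard error 0.50, adjusted p = 0.002357), and -2.05 without wild type embryo 2 (adjusted p = 0.01088, no longer called). Ugt37A1 averaged 6.81 ± 0.13 in wild type larvae and 8.68 ± 0.53 in wild type embryos (SD, n = 4 each), a log2 fold change of -1.87.

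Other members stayed at readable levels in larvae while falling. Ugt303A1 read 9.45, 9.22, 9.05 and 9.18 in wild type larvae, against 11.95, 12.55, 12.00 and 11.89 in wild type embryos. The larval values lay within 0.5 of one another and far below every embryo (log2 fold change -2.87, standard error 0.33, adjusted p = 2.4e-06). Ugt307A1 read 7.74, 7.73, 8.42 and 8.15 in wild type larvae, against 10.13, 10.43, 9.76 and 10.04 in wild type embryos (log2 fold change -2.08, standard error 0.24, adjusted p = 2.095e-06). Ugt37B1 read 9.76, 9.49, 10.61 and 10.86 in wild type larvae, against 11.84, 12.45, 12.49 and 11.98 in wild type embryos (log2 fold change -2.01, standard error 0.42, adjusted p = 0.001178). For these 3 genes the second probe was called as well, at -2.94, -2.00 and -2.04.

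Ugt37C2 was more variable. It read 10.14, 9.27, 11.07 and 11.42 in wild type larvae, against 12.49, 12.22, 12.41 and 12.35 in wild type embryos, and both larvae of the high series lay above both of the low series. The log2 fold change was -1.89 (standard error 0.46, adjusted p = 0.004737), and leaving out any 1 wild type embryo or wild type larva 1 or 2 took it past the threshold, to an adjusted p of 0.02238 at most. The remaining genes that fell were Ugt302E1 (-1.70), Ugt304A1 (-1.46), Ugt303B3 (-1.27), Ugt35E1 (-1.25) and Ugt36A1 (-0.77), the last of these formerly named Dot.

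Ugt49B2 was the gene that rose. It read 7.74, 7.58, 9.39 and 9.44 in wild type larvae, against 6.74, 6.79, 7.01 and 7.44 in wild type embryos. The larvae of the high series carried most of the difference, and the low series lay just above the embryos (log2 fold change 1.54, standard error 0.32, adjusted p = 0.001099). Within the low series the change was 0.90 (adjusted p = 0.002952) and within the high series 2.19 (adjusted p = 8.133e-05). At the dimmer probe of Ugt317A1 a change of 1.18 was called as well (adjusted p = 0.009899), at its brighter probe a change of 1.19 was not (adjusted p = 0.03408). The count of 26 probes was 17 within the low series (11.8% of all probes) and 25 within the high series (13.8% of all), where fewer samples were used, and 24 with dye as a covariate (15.1% of all).

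**Figure D1:**
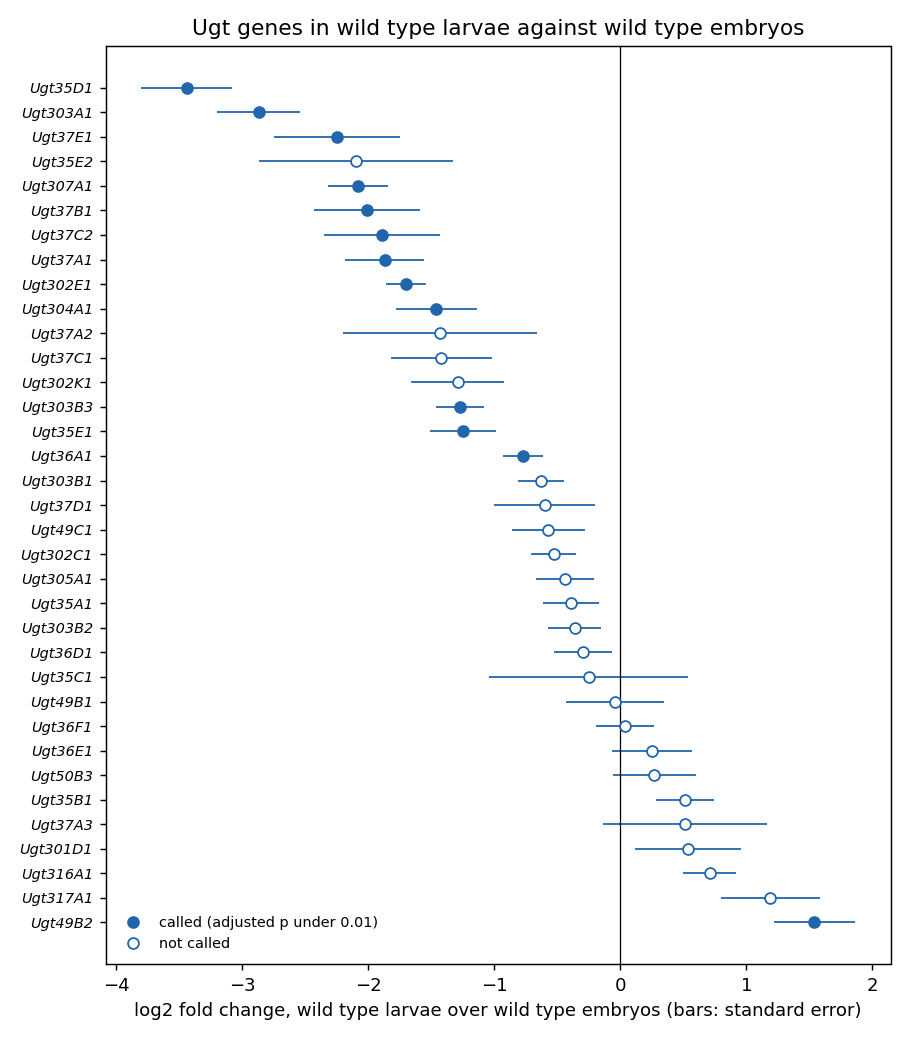
The log2 fold change of wild type larvae over wild type embryos is plotted for 35 Ugt genes at their probe of highest mean, with bars for the standard error and filled points for called genes. Of the filled points 12 lie left of 0, down to -3.44 for Ugt35D1, and 1 lies right of it, Ugt49B2 at 1.54.

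The number series moved with several members in wild type animals, which was noticed in the values and then fitted. In a model with group and series, 19 of 69 Ugt probes were called (27.5%, against 17.4% of all probes), 18 of them higher in the high series (9.15% of all probes were) and 1 lower (8.29% of all probes were). The 9 genes called at their brightest probe were Ugt302K1, Ugt317A1, Ugt35B1, Ugt35C1, Ugt35E2, Ugt37A2, Ugt49B1, Ugt49C1 and Ugt50B3. Ugt35C1, formerly Ugt86Dd and known in Drosophila for its part in nicotine resistance, read 12.97 and 12.68 in wild type larvae 63 and 65, against 10.49 and 10.24 in wild type larvae 1 and 2. The embryos had the same order, with 12.77 and 13.43 in wild type embryos 82 and 83, against 10.04 and 11.15 in wild type embryos 1 and 2. Its difference between the series was 2.50 in wild type embryos, 2.46 in wild type larvae, 2.13 in rescued embryos and 1.88 in mutant larvae, and -0.18 in mz mutant embryos. Ugt35E2 was higher in the high series by 1.46 to 2.36 within each of 5 groups (standard error 0.16 over the groups, adjusted p = 1.606e-07). What the numbers stand for is not stated in the labels. A fit with the series as a block is therefore set beside the counts below where it moves them by over 1.5 times, since overexpressing larvae 2 and 3 are both of the low series.

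**Figure D2:**
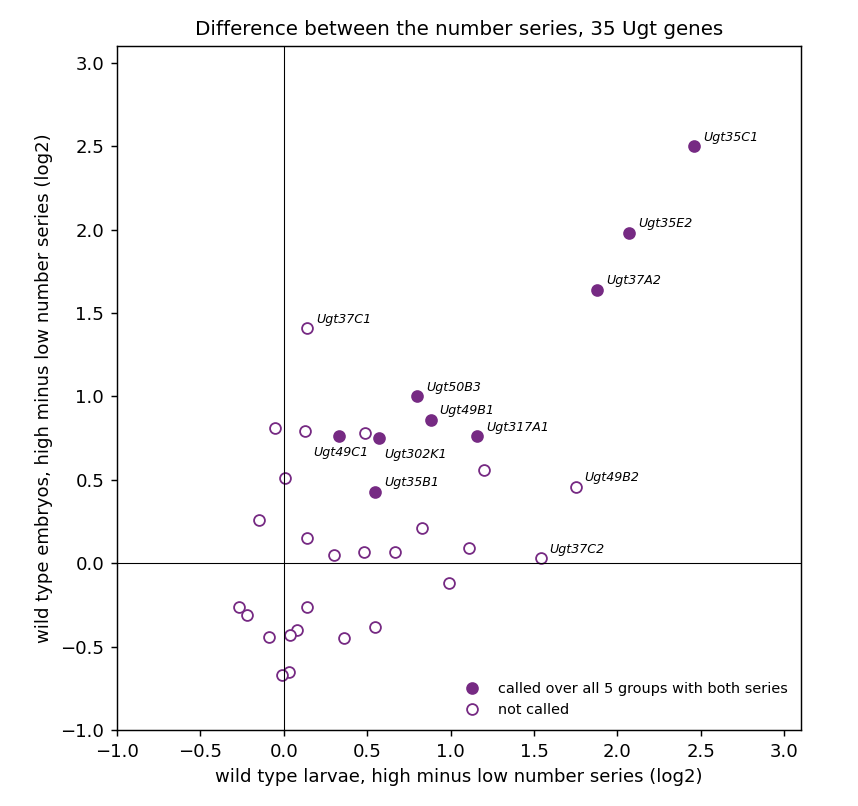
Each point is a Ugt gene, with the mean of the high minus the low number series in wild type larvae on the x axis and in wild type embryos on the y axis, both in log2 units with 2 samples per mean. The 9 filled points, called in the fit over all groups, all lie above 0 on both axes, with Ugt35C1 at 2.46 and 2.50.

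In mz mutant embryos against wild type, members moved both ways. Of 69 probes 5 were called (7.25%, where 4.19% of all probes were), 1 higher (2.57% of all) and 4 lower (1.62% of all), and 9 with a term for the series (6.77% of all). With dye as a covariate none was called (0.953% of all), nor with these 2 groups fitted alone (0.517% of all) or within the low series (0.0575% of all). The count was 1 with the stages fitted apart (1.47% of all) and 12 within the high series (7.34% of all). Without the library labelled mz mutant embryo 1 the count was 16, 7 higher and 9 lower (7.75% of all), for 9 genes. The median over the genes was -0.11, against -0.05 over all genes, and groups did not overlap for 5 of 35 genes (14.3%, against 13.6% of all genes).

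Ugt37C1 fell most. It read 12.19, 10.30, 11.53 and 11.26 in mz mutant embryos, against 12.66, 13.22, 14.58 and 14.13 in wild type embryos. The embryo labelled mz mutant 1 was the highest of its group and still below every wild type embryo (log2 fold change -2.33, standard error 0.40, adjusted p = 0.001118), and without it the change was -2.62. The second probe gave -2.33 (adjusted p = 0.0003399). Rescued embryos read 12.32, 12.80, 13.15 and 13.36, and 3 of these 4 lay within the wild type range. Against rescued embryos the brighter probe gave -1.58 (adjusted p = 0.02353, not called) and the other -1.69 (standard error 0.35, adjusted p = 0.006914), which was the call in mz mutant against rescued embryos, 1 of 69 probes (1.45%, against 2.48% of all probes), and 0 in 11 of the 22 fits that left out 1 sample (1.23% to 2.17% of all probes in those fits). Without mz mutant embryo 1 that comparison had 12 calls, 6 higher and 6 lower (5.97% of all), and with the series as a block 5 (4.56% of all).

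Ugt304A1 read 9.77, 8.43, 8.41 and 8.09 in mz mutant embryos, against 10.00, 10.21, 10.07 and 10.27 in wild type embryos. Mz mutant embryo 1 again lay nearest to the wild type (log2 fold change -1.46, standard error 0.32, adjusted p = 0.006084). Ugt316A1 rose, with 10.82, 12.27, 11.52 and 11.31 in mz mutant embryos, against 10.50, 10.45, 10.51 and 10.73 in wild type embryos (log2 fold change 0.93, standard error 0.21, adjusted p = 0.008444). Leaving out any 1 of the wild type embryos, or mz mutant embryo 4, 87 or 88, took both genes past the threshold, to 0.02783 for Ugt304A1 and 0.02642 for Ugt316A1 at most over all samples left out. The call of Ugt316A1 was also lost without single samples of other groups, and the count of 5 probes was 2 or 3 without any 1 of these 7 embryos (2.21% to 3.41% of all probes). At the dimmer probe of Ugt307A1 the change was -0.91 (adjusted p = 0.003849), at its brighter probe -0.82 (adjusted p = 0.0343).

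Members in which mz mutant embryo 1 parted from its group were looked at after their values were seen. Ugt37A3 read 11.70, 10.94 and 10.64 in mz mutant embryos 4, 87 and 88 and 7.35 in embryo 1, against 7.74, 7.34, 8.06 and 8.15 in wild type embryos. The log2 fold change was 2.34 (standard error 0.65, adjusted p = 0.02818), and 3.27 without embryo 1 (adjusted p = 2.477e-05). Ugt37E1 read 11.74, 11.35 and 11.52 in mz mutant embryos 4, 87 and 88 and 8.24 in embryo 1, against 8.87 to 9.80 in wild type embryos (log2 fold change 1.51 with and 2.33 without it, adjusted p = 4.536e-07 in that fit). Ugt37B1 read 9.96, 9.93 and 9.94 in the same 3 embryos and 12.11 in embryo 1, against 11.84 to 12.49 in wild type embryos (-1.71 with and -2.25 without it, adjusted p = 6.799e-05). Embryo 1 was within the wild type range in Ugt37A3 and Ugt37B1 and below it in Ugt37E1, where its 3 fellows lay above it. Ugt37A1 (1.32) and Ugt303A1 (-1.66) were also called without embryo 1. Within the Ugt37 group, 6 of 8 genes were positive and 2 negative in mz mutant embryos over all 4 samples.

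In the same embryos 2 of the 9 measured cuticle and epidermis markers were called higher and none lower (3.36% and 2.30% of all genes). These were kkv (2.01 on the log2 scale) and knk (1.78), both genes of chitin deposition. Of the 9 markers 5 were negative, with a median of -0.09. The mean of the 9 markers ran from 12.80 to 13.63 in mz mutant embryos and from 13.02 to 13.41 in wild type embryos, and no marker was in the dimmest 25% in every sample of a group. Their part in the Ugt values was not tested.

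**Figure D3:**
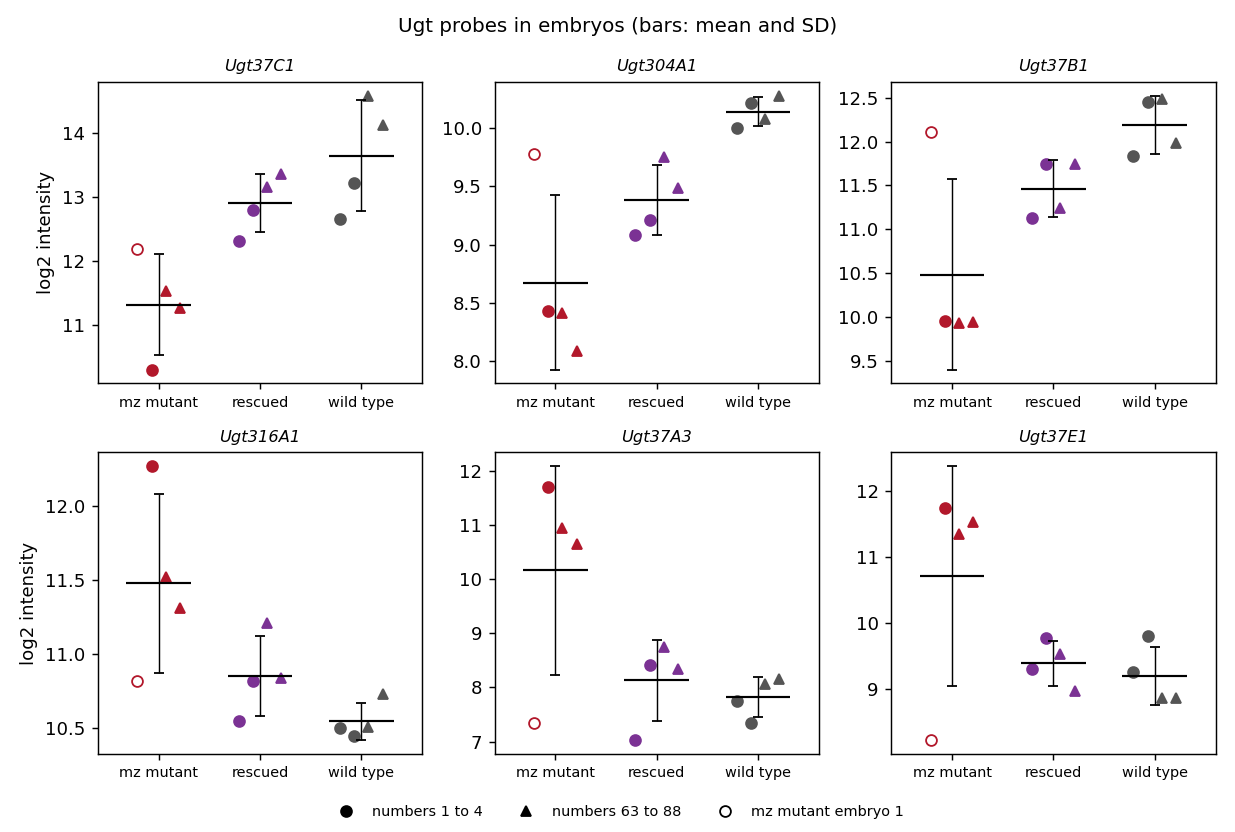
Log2 intensity by sample is plotted for 6 Ugt genes in mz mutant, rescued and wild type embryos, with circles for numbers 1 to 4, triangles for 63 to 88 and bars for mean and SD. The open circle, mz mutant embryo 1, sits within the range of the wild type embryos in Ugt37B1 (12.11) and Ugt37A3 (7.35) and below it in Ugt37E1 (8.24).

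Rescued embryos had no called Ugt probe against wild type by limma, where 0.146% of all probes were called, and 5 of 69 had an unadjusted p under 0.05 (7.25%, against 4.66% of all probes). The values nevertheless leaned down. Of the 35 genes 26 were negative (74.3%, against 42.5% of all genes), with a median of -0.21 against 0.03 over all genes. Dyes were not balanced here: rescued embryos 66 and 84 carried Alexa488, 1 carried Cy5 and 2 Cy3, while 3 wild type embryos carried Cy3 and 1 Cy5. The part of dye in this lean was not tested. In 6 genes every rescued embryo lay below every wild type embryo and in none above (17.1% below, against 0.969% of all genes, while 2.37% of all genes lay above), namely Ugt302E1, Ugt303A1, Ugt304A1, Ugt35B1, Ugt37B1 and Ugt37C2. Ugt302E1, with the smallest p, read 12.24, 11.79, 12.33 and 12.09 in rescued embryos, against 12.95, 12.99, 12.61 and 12.48 in wild type embryos. The groups came within 0.2 of one another, and the change of -0.64 (standard error 0.16, adjusted p = 0.1096) was not called. Ugt35B1, next in p, read 6.54, 7.34, 7.65 and 7.53 in rescued embryos, against 7.84, 7.86, 8.23 and 8.33 in wild type embryos (log2 fold change -0.80, adjusted p = 0.2822), and Ugt304A1 gave -0.76 (adjusted p = 0.8794).

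In mutant larvae against wild type 3 of 69 probes were called (4.35%, against 1.87% of all probes), 2 higher (1.05% of all) and 1 lower (0.823% of all), all at dimmer probes of their genes. With dye as a covariate none was called (0.223% of all). With the series as a block 8 were called, 3 higher and 5 lower (3.05% of all). Within the low series 1 was called, higher (0.860% of all), and within the high series 4, all lower (1.10% of all). The count was 1 without the library labelled mutant larva 66 (1.46% of all) and 1 without 65 and 66 (1.76% of all). It was also 1 without mutant larva 2, 4 or 65 or wild type larva 63 (1.28% to 1.46% of all), and 5 without mz mutant embryo 1 or 4 (2.34% and 2.05% of all). Of the 35 genes 25 were positive, with a median of 0.28 against -0.02 over all genes, and 23 without larva 66 (median 0.10). Without 65 and 66, 16 were positive and the median was -0.03. That fit set mutant larvae of the low series against wild type larvae of both series. Ugt genes read higher in the high series, by a median of 0.30 (0.02 over all genes). The part of the series in this shift was not tested. Groups did not overlap for 10 genes (28.6%, against 15.2% of all genes), 6 of them higher (7.34% of all) and 4 lower (7.83% of all).

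The calls upward were both of Ugt303B3. At one of its probes mutant larvae read 8.67, 8.43, 8.82 and 8.52, against 7.65, 7.46, 7.59 and 7.79 in wild type larvae. All mutants lay above all wild types (log2 fold change 0.99, standard error 0.13, adjusted p = 0.0001207), and a second probe gave 0.92 (adjusted p = 0.008408), while the brightest of the 3 gave 0.63 and was not called. The first probe remained called without larva 66 (1.02, adjusted p = 0.0003624) and without 65 and 66 (0.93, adjusted p = 0.002557), and the second was not (0.92, adjusted p = 0.02121, and 0.82, adjusted p = 0.07317). With dye as a covariate the first gave 1.01 (adjusted p = 0.02754). At the first of these probes the difference from wild type in larvae exceeded that in mz mutant embryos by 0.94 (standard error 0.18, adjusted p = 0.009721). Stage and maternal load cannot be told apart in this contrast, since mz mutant embryos lack maternal product and mutant larvae had it. This was the call among 69 probes for the interaction of mutation and stage (1.45%, against 0.686% of all probes), which had 9 without mz mutant embryo 1 (2.15% of all) and 4 with the series as a block (1.23% of all), and 0 in 16 of the 22 fits that left out 1 sample (0.405% to 0.705% of all), among them that without larva 66 (0.449% of all). Without 65 and 66 the count was 1 (0.354% of all), at Ugt303A1 (2.79, adjusted p = 0.009156). Ugt303A1 and Ugt35E1 had the smallest p there among the brightest probes, at 2.34 (adjusted p = 0.01171) and 1.74 (adjusted p = 0.01697), followed by Ugt304A1 at 1.56 (adjusted p = 0.09935), and none of them was called.

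Ugt49B2 fell at its dimmer probe. It read 6.79, 6.99, 6.94 and 7.05 in mutant larvae, against 7.67, 7.62, 9.44 and 9.39 in wild type larvae. The mutants lay near the border of the dimmest 25% of values, where a fall can be understated, and the wild type larvae of the high series were the highest (measured log2 fold change -1.59, standard error 0.32, adjusted p = 0.006485). The call was lost without larva 66 (-1.62, adjusted p = 0.01467) and without 65 and 66 (-1.64, adjusted p = 0.03261), and the brighter probe gave -1.44 (adjusted p = 0.01115, not called). Within the low series the brighter probe gave -0.59 (adjusted p = 0.06239) and within the high series -2.29 (adjusted p = 0.0006349). Ugt35E1 read 11.43, 11.27, 10.79 and 10.66 in mutant larvae, against 9.82, 9.91, 10.03 and 9.77 in wild type larvae. The groups lay apart, and the change of 1.15 (standard error 0.26, adjusted p = 0.01383) missed the threshold, as did that of Ugt303B1 at 0.70 (adjusted p = 0.03083). Ugt37C1, looked at after its values were seen, read 10.25, 10.58, 11.26 and 11.64 in mutant larvae, against 12.07, 12.24, 12.29 and 12.30 in wild type larvae. The groups did not overlap, and the change of -1.29 was not called (standard error 0.40, adjusted p = 0.09118).

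Overexpressing larvae 2 and 3 had 1 called probe of 69 against wild type (1.45%, against 0.683% of all probes), and 2 with the series as a block (1.07% of all). This was Ugt302E1, at 9.77 and 9.52 in overexpressing larvae, against 11.04, 11.04, 11.01 and 11.15 in wild type larvae. The wild type larvae lay within 0.2 of one another, more than 1 unit above (log2 fold change -1.42, standard error 0.20, adjusted p = 0.000437). The call was kept within the low series (-1.40, adjusted p = 0.009023) and was lost without overexpressing larva 3 (-1.29, adjusted p = 0.02428). With dye as a covariate limma gave -1.75 (adjusted p = 0.006446). Overexpressing larvae 2 and 3 carried Cy5 and all wild type larvae Cy3, so that this fit cannot part dye from genotype here. Of the 35 genes 26 were negative, with a median of -0.38 against -0.01 over all genes. Groups did not overlap for 17 (48.6%, against 37.0% of all genes), 14 of them lower (40.0%, against 19.3% of all genes). Both overexpressing larvae were of the low series, and the wild type larvae were of both. Ugt genes read higher in the high series, by a median of 0.30 (0.02 over all genes). The part of the series in this lean was not tested.

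The largest difference was not called. Ugt35C1 read 7.47 and 7.59 in overexpressing larvae, against 10.49, 10.24, 12.97 and 12.68 in wild type larvae. Even the lower pair of wild type larvae, of the same number series, stood more than 2 units above (log2 fold change -4.06, standard error 0.97, adjusted p = 0.03513). With the series as a block the change was -3.18 and called (adjusted p = 0.005178), and within the low series it was -2.83 (adjusted p = 0.02997). The fall was not particular to overexpressing larvae. Mutant larvae 2, 4, 65 and 66 read 8.60, 8.56, 10.53 and 10.39, each below the wild type larvae of its own number series. Their log2 fold change against wild type was -2.07, the lowest of the 35 genes in that comparison, and was not called in the main fit.

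Mutant and overexpressing larvae differed at 4 of 69 probes (5.80%, against 2.70% of all probes), all higher in mutants (1.24% of all probes were). With the series as a block 7 were called (3.47% of all), 6 of them higher, and with dye as a covariate 2 (1.69% of all). Dyes were not balanced here: overexpressing larvae 2 and 3 and mutant larvae 65 and 66 carried Cy5, and mutant larvae 2 and 4 Alexa488. Of 35 genes 28 were higher, with a median of 0.68 against -0.02, and 16 were higher without overlap (45.7%, against 19.4% of all genes) while 4 were lower without overlap (11.4%, against 19.3%). Ugt302E1 read 10.82, 10.51, 10.95 and 10.96 in mutant larvae, against 9.77 and 9.52 in overexpressing larvae (log2 fold change 1.17, standard error 0.20, adjusted p = 0.001164). In this gene the overexpressing larvae were the ones apart, since mutants differed from wild type by -0.25. Ugt303B1 read 9.91, 9.51, 9.48 and 9.10 in mutant larvae, against 8.41 and 8.21 in overexpressing larvae (log2 fold change 1.19, standard error 0.22, adjusted p = 0.002644). Wild type larvae lay between them, at 8.72 to 8.89. At their dimmer probes Ugt36D1 (1.25) and Ugt49C1 (1.27) were called as well. Without overexpressing larva 2 the count was 1 (0.827% of all) and without larva 3 it was 0 (0.615% of all). It was 2 without the library labelled mutant larva 66 (2.08% of all) or without mutant larva 2 or 65 (2.06% and 1.80% of all), and 8 without mz mutant embryo 1 (3.12% of all). Without 65 and 66 it was 1 (2.24% of all), Ugt303B1 at 1.40 (adjusted p = 0.001905), with 23 of the 35 genes higher and a median of 0.35. All larvae compared there were of the low series, but dye and genotype cannot be told apart among them.

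Some midgut markers differed between the larval genotypes. The mean of 12 markers ran from 13.83 to 13.95 in mutant larvae, from 13.54 to 13.59 in overexpressing larvae and from 13.06 to 13.32 in wild type larvae. In mutant against wild type larvae 3 of the 12 rose, where 1.36% of all genes did: the maltases Mal-A1 (1.37), Mal-A6 (1.99) and Mal-A8 (1.61). Vha100-4, a proton pump subunit of the acid region, fell by 2.40, while 8 were not called. None of the 12 was called in overexpressing against wild type larvae. Without mutant larva 66, 3 rose and 1 fell in mutant against wild type larvae, and without 65 and 66, 2 rose and 1 fell. No midgut marker was in the dimmest 25% in every sample of a group. Fat body markers averaged 10.61 to 10.75 in mutant larvae, 10.41 to 10.42 in overexpressing larvae and 10.52 to 10.68 in wild type larvae. The part of tissue composition in the Ugt values was not tested.

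**Figure D4:**
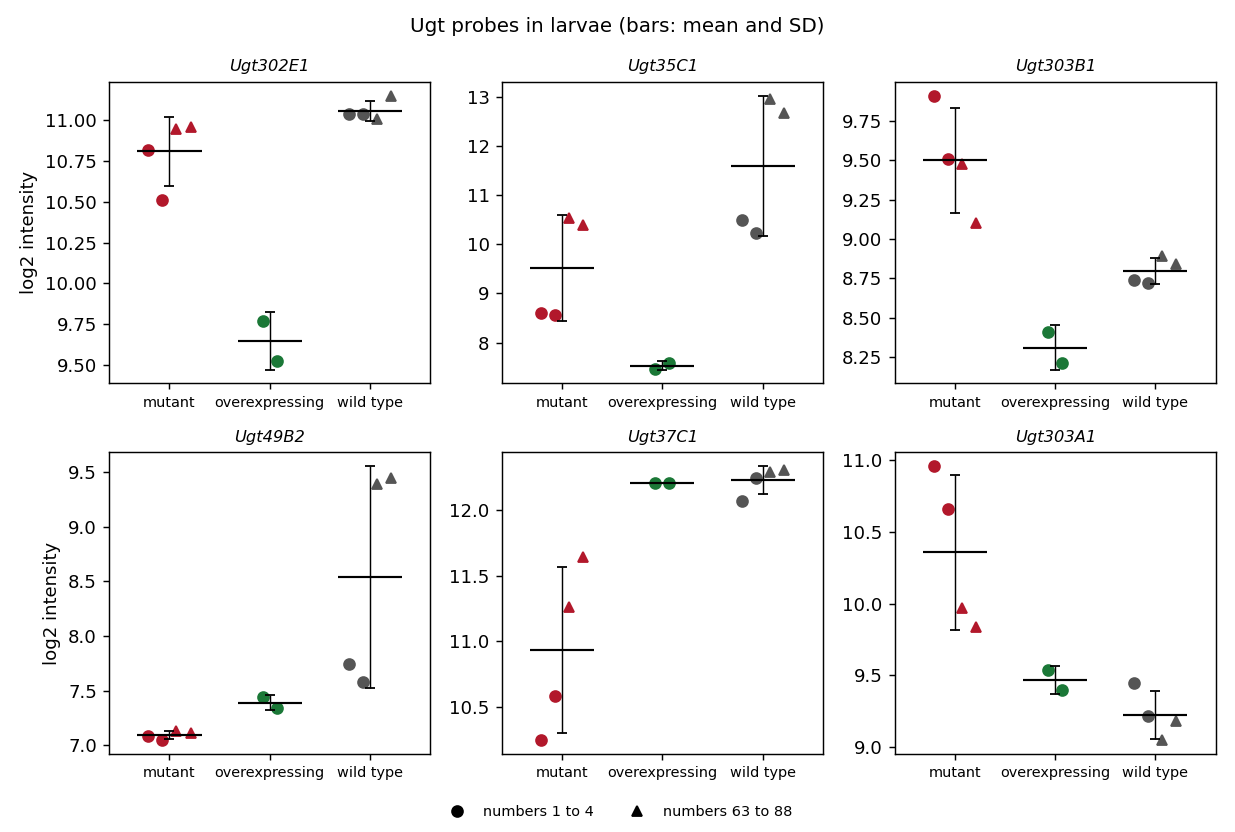
Log2 intensity by sample is plotted for 6 Ugt genes in mutant, overexpressing (larvae 2 and 3) and wild type larvae, with circles for numbers 1 to 4, triangles for 63 to 88 and bars for mean and SD. Overexpressing larvae lie below all others in Ugt302E1 (9.77 and 9.52), Ugt35C1 (7.47 and 7.59) and Ugt303B1 (8.41 and 8.21).

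The position of the genes was not used to choose them. With up to 3 other protein-coding genes allowed between neighbours, 23 of the 35 genes lay in 6 runs in the RefSeq Release 6 annotation, and the longest held 10 genes on arm 3R, Ugt35C1, Ugt302K1, Ugt302E1, Ugt302C1, Ugt35E1, Ugt35E2, Ugt35B1, Ugt35A1, Ugt304A1 and Ugt303A1 in this order. In wild type larvae against wild type embryos 9 of the 10 were negative and 4 were called lower, with a range from -2.87 to 0.51. In mutant against overexpressing larvae 10 of 10 were positive, from 0.11 to 2.12, with 1 called, and 9 without larva 66 and 8 without 65 and 66. In mz mutant embryos against wild type 8 of 10 were negative, and in rescued embryos 9 of 10. Over all 35 Ugt genes, 26 were negative between the stages (74.3%, against 49.8% of all genes) and 12 called lower (10.0% of all genes). In mutant against overexpressing larvae 28 of the 35 were positive and 2 called higher (1.73% of all genes). In mz mutant embryos 21 were negative (60.0%, against 57% of all genes) and in rescued embryos 26 (74.3%, against 42.5%). The run of Ugt37C2, Ugt37E1 and Ugt37D1 on arm 2L was positive in all 3 genes in mz mutant embryos against wild type (0.47 to 1.51) and negative in all 3 in wild type larvae against wild type embryos (-2.25 to -0.60). Neighbours also parted: Ugt37A3 and its neighbour Ugt37A2 gave 2.34 and 0.39 in mz mutant embryos, and Ugt35B1 read above the embryos in wild type larvae (0.51) where the rest of its run read below. Close copies in a run may share signal between probes, as probe sequences were not used here.

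**Figure D5:**
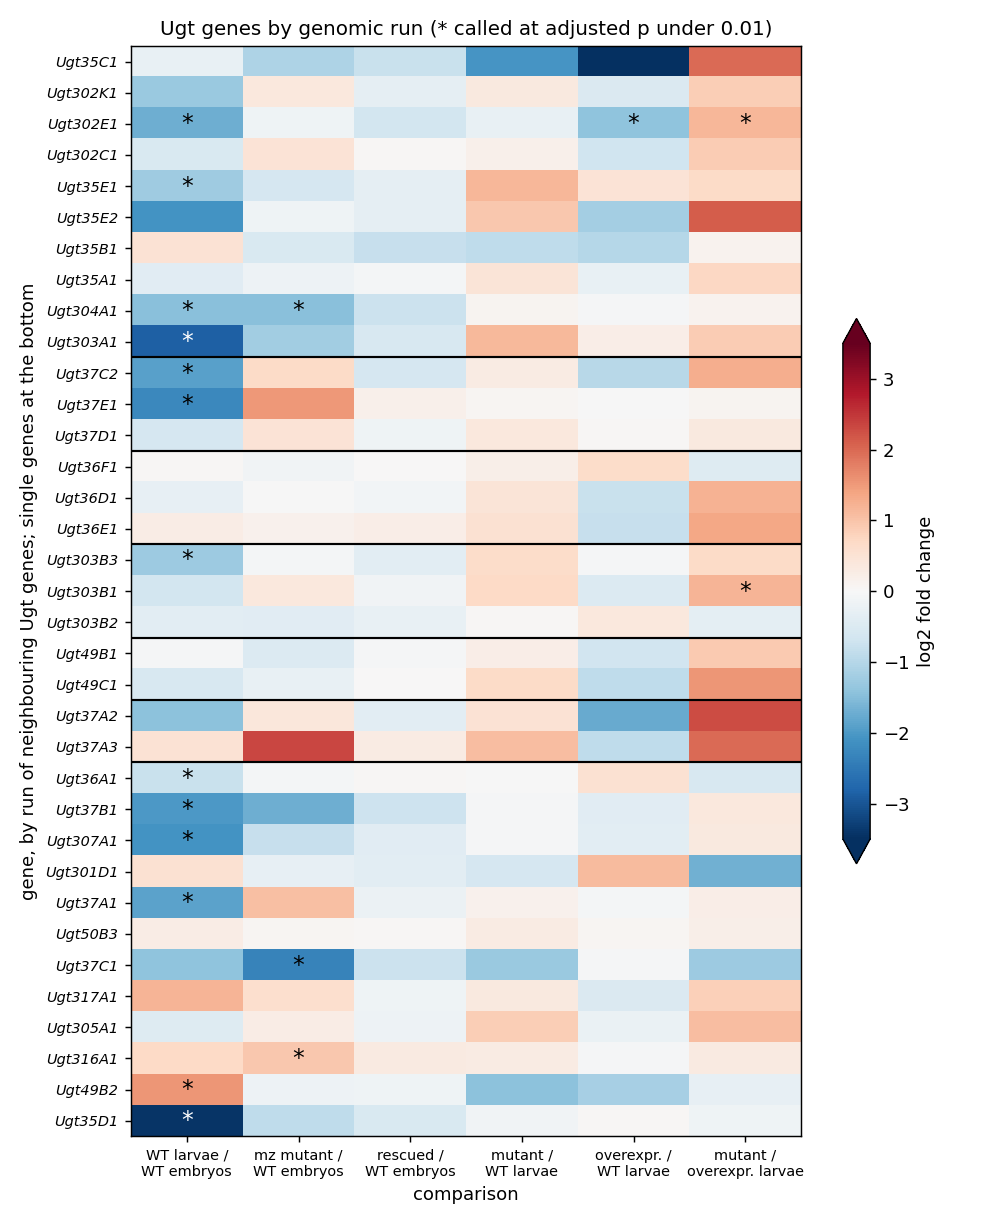
The log2 fold change at each gene's probe of highest mean is shown as colour, with genes as rows grouped by run of neighbouring Ugt genes and comparisons as columns, and an asterisk marks a called gene. The column of wild type larvae over wild type embryos holds 13 asterisks, and the row block of 10 genes at the top is positive throughout in mutant over overexpressing larvae.

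Other genes of detoxification were measured for context. Of 86 cytochrome P450 genes, 11 rose and none fell in mutant larvae against wild type, with Cyp4p2 (2.92) and Cyp6a2 (2.62) as examples. In mutant against overexpressing larvae 11 rose and none fell, and Cyp6g1, known in Drosophila for insecticide resistance, had 2.56. Without mutant larva 66 the counts that rose were 8 and 12, and without 65 and 66 they were 9 in both comparisons. Over all genes 1.36% rose in mutant against wild type larvae and 1.73% in mutant against overexpressing larvae. In wild type larvae against wild type embryos 20 P450 genes fell and 7 rose (10.0% and 12.9% of all genes). In mz mutant embryos 7 fell and 5 rose (2.30% and 3.36% of all genes). Of 35 glutathione S-transferases 5 fell and 3 rose in wild type larvae against wild type embryos, and GstE1 (2.11) and GstE7 (1.57) rose in mz mutant embryos. Of 6 ABC transporters 3 fell in wild type larvae against wild type embryos, Mrp5 (-3.18), Mdr50 (-2.14) and Mdr65 (-0.78). Of 9 measured genes that supply or carry UDP-sugars, Pgm1 (1.07) and Uxs (1.01) rose and Efr (-1.36) and mmy (-1.13) fell in that comparison, and none was called in the others. Of 4 sulfotransferases 2 rose and 1 fell with stage, and of 8 regulators of detoxification Keap1, the cytosolic partner of cnc, fell by 0.99.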

How the data were processed

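Per the methods, the authors scanned Agilent 4x44K arrays, took median spot intensities with GenePix Pro 6.0 and processed them in R with limma. Background correction and normalisation are not given in the sources used here. The deposited log2 values of 45220 probes, with 0 missing and nearly identical distributions, were used as they are. Probes were named through the platform annotation, updated by gene identifier (29872 with 1 gene name, 15348 with none).

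In R 4.3.3, limma 3.58.1 fitted 1 model of 6 group means over 22 samples, without overexpressing larvae 69 and 70. Moderated statistics were adjusted after Benjamini and Hochberg over the 45220 probes and called under 0.01. The number of arrays limits the precision, and the fit was tested on simulated data.

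Values by sample are given for up to 6 called genes each way whose groups do not overlap, or, where none was called, the 3 of smallest p, and for probes that were called where the brightest was not; other genes are said to be chosen later. Members, lists and rules were chosen with earlier results of these data known, and lists were written by hand. Alternatives were other scalings, thresholds, probe rules, sample sets, dye, series and number terms, and leaving out each sample.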

Additional observations from a re-analysis of the deposited data

Results flagged for a closer look

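In groups of 4, 4 of 80 tests of named genes had a sample whose gap to its nearest fellow exceeded Dixon's 95% limit, where chance gives about 1 in 20. The library labelled mz mutant embryo 1 had 2 of them, Ugt37B1 at 12.11 with its fellows at 9.93 to 9.96, and Ugt37E1 at 8.24 with its fellows at 11.35 to 11.74. The others were Ugt303B3 at 9.48 in mz mutant embryo 88 and Ugt303A1 at 12.55 in wild type embryo 2.

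At a dimmer probe of Ugt303B3 the difference of mutant from wild type larvae exceeded that of mz mutant from wild type embryos by 0.94 on the log2 scale (standard error 0.18, adjusted p = 0.009721 by limma over all probes). Stage and maternal load cannot be told apart there, and no Ugt probe was called in 16 of 22 fits that left out 1 sample.

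Overexpressing larvae 69 and 70, which entered no comparison, lay above every wild type larva in 3 of 16 named genes. Ugt307A1 read 11.57 and 12.57 in these larvae, against at most 8.42 in wild type larvae. Ugt35D1 read 7.47 and 10.01, against at most 6.80, and Ugt303B3 8.61 and 10.46, against at most 7.94. Other probes of these genes went both ways. The other probe of Ugt35D1 (8.55 and 7.29, against at most 6.84) and 1 of Ugt303B3 (12.46 and 10.52, against at most 7.79) also read above every wild type larva. The dimmer probe of Ugt307A1 read 6.74 and 6.69 in larvae 69 and 70, against 7.36 to 7.87 in wild type larvae. The dimmest probe of Ugt303B3 read 6.37 in both, against 7.19 to 7.80. The share of all genes in which larvae 69 and 70 lay above every wild type larva was not computed.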

How the results depend on the processing

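Single values were followed only for the 19 calls at the brightest probes, of 16 named genes, so that a kept sign was likely from the start. Of their 288 values under other settings 236 kept their side of the threshold, 52 lost the call and 0 changed sign. With single samples left out 382 of 418 kept it, 36 lost it and 0 changed sign. Counts of called Ugt probes moved more, and are given in the order mz mutant against wild type, mz mutant against rescued, mutant against wild type larvae, overexpressing against wild type larvae, mutant against overexpressing larvae, wild type larvae against wild type embryos and mutation by stage; rescued against wild type embryos had 0 in each. With all 24 samples they were 2, 0, 0, 3, 10, 10 and 0 (of all probes 0.624%, 0.281%, 0.155%, 0.531%, 3.47%, 3.74% and 0.0509%). With array weights they were 15, 2, 14, 3, 12, 34 and 5 (of all probes 5.95%, 2.90%, 6.70%, 2.57%, 5.96%, 24.0% and 1.75%). At a threshold of 0.05, where more of all probes pass by construction, they were 15, 5, 11, 4, 16, 34 and 5. Dye as a covariate gave 0, 0, 0, 1, 2, 24 and 2 (of all probes 0.953%, 1.93%, 0.223%, 0.0730%, 1.69%, 15.1% and 0.542%). The groups of each comparison fitted alone gave 0, 0, 1, 1, 0, 24 and 0 (0.517%, 0.232%, 1.43%, 0.363%, 0.283%, 15.4% and 0.447%). The number series as a block gave 9, 5, 8, 2, 7, 31 and 4 (6.77%, 4.56%, 3.05%, 1.07%, 3.47%, 20.5% and 1.23%). Within the low series they were 0, 0, 1, 1, 3, 17 and 0 (of all probes 0.0575%, 0.0111%, 0.860%, 0.469%, 3.49%, 11.8% and 0.00442%). Within the high series they were 12, 12, 4, 25 and 10 for the comparisons without overexpressing larvae (of all probes 7.34%, 6.80%, 1.10%, 13.8% and 1.55%). The mean of a gene's probes gave 4, 2, 3, 1, 5, 13 and 1, and 1 probe per gene 4, 0, 1, 1, 4, 14 and 1, over fewer features by construction. Each stage fitted alone gave 1, 0, 3, 1 and 5 for the first 5 (of all probes 1.47%, 0.878%, 2.16%, 0.668% and 3.45%). Quantile normalisation and equal medians changed no count, and dropping dim probes none by over 1.5 times. Leaving out mutant larvae 65 and 66, chosen after their Manf values were seen, gave 4, 1, 1, 2, 1, 28 and 1. The cause of these shifts was not tested.

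Leaving out 1 sample gave 2 to 16 called probes in mz mutant against wild type embryos, 0 to 12 against rescued embryos, 1 to 5 in mutant and 0 to 2 in overexpressing against wild type larvae, 0 to 8 between mutant and overexpressing larvae, 22 to 28 between the stages and 0 to 9 for mutation by stage. The highest count was without mz mutant embryo 1 in each of these except overexpressing against wild type larvae, and for mutant against wild type larvae also without mz mutant embryo 4. Apart from overexpressing against wild type larvae, the shares of all probes without mz mutant embryo 1 were 7.75%, 5.97%, 2.34%, 3.12%, 16.7% and 2.15% in that order.

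What same-numbered samples share beyond the number is not stated. By the methods, RNA labelled with different dyes was hybridised, and which samples shared an array is not stated either. The deviations of same-numbered pairs from their group means correlated at -0.23 to 0.54, with at most 2 pairs in a comparison. With the replicate number as a block the counts were 0, 0, 0, 0, 0, 16 and 0 (of all probes 0.0111%, 0.00442%, 0.0332%, 0%, 0%, 7.47% and 0%).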
